A study of Mus musculus with 18 samples.

Results

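The effect of pemafibrate after 24 h was set against its effect after 6 h in AML12 cells, an established mouse hepatocyte line whose circadian rhythm had been synchronized. Pemafibrate is an agonist of the nuclear receptor PPARα, and DMSO is its vehicle. For every gene and replicate number, the pemafibrate minus DMSO difference of the 24 h exposure (T0 to T24) was taken, and the mean of the same differences of the 6 h exposures (T14 to T20, described as day-like, and T24 to T30, described as night-like) was subtracted from it. The result keeps its sign. Below, larger at 24 h means a value above 0 and smaller a value below 0, whatever the size of either effect. A stronger fall at 24 h thus counts as smaller. The comparison used 18 libraries in 6 groups of 3, namely DMSO T0 to T24, Pema T0 to T24, DMSO T14 to T20, Pema T14 to T20, DMSO T24 to T30 and Pema T24 to T30. All groups were the same cell line, and no genotype, dose or passage is given in the sources used here. Of 35551 genes, 13258 had a mean normalized signal of at least 10 over the 18 libraries and were tested.

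The windows differed in more than length. The 24 h exposure began at T0 and was harvested at T24, whereas the 6 h exposures began later and were harvested at T20 and T30, so length of exposure, starting time and harvest time cannot be told apart. Nothing tells whether the replicates were separate cultures, so each p-value rests on a spread that may be technical only. Each library held a normalized total of 31461977 to 33884634, and read depth before normalization is unknown. Hepatocyte markers were partly present: 19 of 29 were tested, among them Alb (albumin, mean signal 4568) and Hnf4a (a liver transcription factor, 7769), while Cyp2e1, Cyp3a11, Cyp7a1, Apoa1 and G6pc fell below the minimum. Genes also used as cholangiocyte or mesenchymal markers were high, with means of 41127 for Spp1, 9868 for Krt19 and 28421 for Vim. The macrophage markers Adgre1, Clec4f and Timd4 were at 0 in every library, and the endothelial marker Cdh5 reached at most 0.997. Other markers of these cells were present. Of 10 markers per list, 4 passed the minimum for macrophages, 2 for endothelium, 4 for stellate cells and fibroblasts and 8 for cholangiocytes. The cholangiocyte markers Epcam and Cldn4 and the fibroblast markers Pdgfra and Pdgfrb fell below it.

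PPARα works as a dimer with a retinoid X receptor (RXR) and, once a ligand binds, raises transcription of genes for fatty acid uptake, activation, oxidation and ketone body formation. The dimer binds a direct repeat of the hexamer AGGTCA with 1 base between its copies. In the liver the receptor is best known for the fasting response, and fibrates lower plasma triglycerides through it.

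Promoters of 4 targets described below are shown because their genes rose with pemafibrate at both lengths and differ in whether the hexamer lies in the window shown. The 250 bases before a RefSeq start are given 5′ to 3′ on the gene's strand (assembly GRCm38.p6), with AGGTCA or its reverse complement TGACCT in capitals. The windows are chr12:84009252-84009501 on the plus strand for Acot1, chr19:3323051-3323300 on the plus strand for Cpt1a, chr10:81092592-81092841 on the minus strand for Creb3l3 and chr4:86670060-86670309 on the minus strand for Plin2.
Acot1: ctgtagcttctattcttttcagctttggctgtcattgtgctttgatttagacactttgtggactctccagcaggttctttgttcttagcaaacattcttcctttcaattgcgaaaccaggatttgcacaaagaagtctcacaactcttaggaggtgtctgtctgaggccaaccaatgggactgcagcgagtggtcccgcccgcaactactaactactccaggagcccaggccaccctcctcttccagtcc
Cpt1a: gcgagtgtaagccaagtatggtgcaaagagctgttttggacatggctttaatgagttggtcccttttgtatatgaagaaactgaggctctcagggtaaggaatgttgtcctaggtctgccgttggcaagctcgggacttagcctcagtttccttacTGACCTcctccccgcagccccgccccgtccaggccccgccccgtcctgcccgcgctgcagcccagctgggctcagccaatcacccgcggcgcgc
Creb3l3: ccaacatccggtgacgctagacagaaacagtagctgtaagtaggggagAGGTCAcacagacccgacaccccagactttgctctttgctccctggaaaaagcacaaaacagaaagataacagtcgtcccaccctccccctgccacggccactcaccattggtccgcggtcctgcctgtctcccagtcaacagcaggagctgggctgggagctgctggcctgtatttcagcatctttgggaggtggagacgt
Plin2: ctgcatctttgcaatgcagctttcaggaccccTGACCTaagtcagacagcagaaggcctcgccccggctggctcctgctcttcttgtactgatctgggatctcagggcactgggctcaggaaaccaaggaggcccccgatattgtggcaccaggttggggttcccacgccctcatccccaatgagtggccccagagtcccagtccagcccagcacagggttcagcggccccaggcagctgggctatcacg
Counted from the start, the match began at position -94 in Cpt1a, -202 in Creb3l3 and -218 in Plin2, and the window of Acot1 held none. Creb3l3 has a second RefSeq start, whose 250 bases (chr10:81098873-81099122, minus strand) held no hexamer, and the window shown is the one with a match. Windows of 300 bases, with 50 bases after the start added, were found for 12 of the 16 core targets tested. In 5 of their 14 windows the hexamer occurred on either strand (Acadm, Cd36, Cpt1a, Creb3l3, Plin2), against 16.3% of all 32851 windows. The full direct repeat with any 1 base between the hexamers was in 0 of the 14 windows and in 0.0396% of all windows. The 4 genes shown were chosen because they rose, so their rise tells nothing about the hexamer. Of the other core targets with a hexamer, Acadm and Cd36 had 24 h estimates of -0.04 and -0.03 (log2). Among those without it, the estimates were 0.95 for Acot2 and 1.41 for Pdk4, but 0.04 for Ehhadh and 0.03 for Pex11a. These are matches of letters in a short window, not sites of binding.

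Across all genes the 24 h effect was not shown to differ from the 6 h effect. None of 13258 genes passed an adjusted p of 0.05 (0%; limma with Benjamini-Hochberg adjustment, smallest adjusted p = 0.505). At an unadjusted p under 0.05 there were 696 genes (5.25%), of which 377 had a difference above 0 (2.84%) and 319 one below 0 (2.41%), while 5% of the genes tested is 663. Estimates were above 0 for 50.2% of genes, and the median gene differed by 0.0607 on the log2 scale in either direction. Against T14 to T20 alone, 0 genes passed and 654 had an unadjusted p under 0.05 (4.93%). Against T24 to T30 alone, 0 passed and 1057 did (7.97%), with a smallest adjusted p of 0.121 in limma. All 3 comparisons share the 24 h libraries.

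The precision can be read from the 95% intervals. For 10614 genes (80.1%) the interval of the difference lay within 1.5-fold either way, so a larger divergence of the 2 exposures was outside the interval for these genes. The median standard error was 0.0809 on the log2 scale. Intervals and standard errors come from the fit with the pairs as blocks.

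Most genes called at 24 h were also called at 6 h, and 8 of those called at both were core PPARα targets. At 24 h, 13 genes rose (0.0981%) and 1 fell (0.00754%), and over the 6 h windows 16 rose (0.121%) and 0 fell (limma, adjusted p under 0.05, 13258 genes tested). Of these, 11 were called at both lengths, which is 78.6% of the 24 h genes and 68.8% of the 6 h genes. The 24 h effect rests on 3 pairs and the 6 h mean on 6 pairs, so the same threshold asks for a larger estimate at 24 h. The plot of 24 h against 6 h effects shows the 11 genes above the line of equal effects. In all 11 the estimate was larger at 24 h, and in 3 the difference had an unadjusted p under 0.05, Aldh1a1 and Cpt1a among them. The counts depend on the pairing and on single replicates: without the pairs as blocks 0 genes were called at 24 h and 2 at 6 h, and without replicate number 2 the counts were 5 and 8. Since both effects had to pass a threshold, and the one at 24 h a higher one, the direction of these 11 estimates is given as a description.

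**Figure D1:**
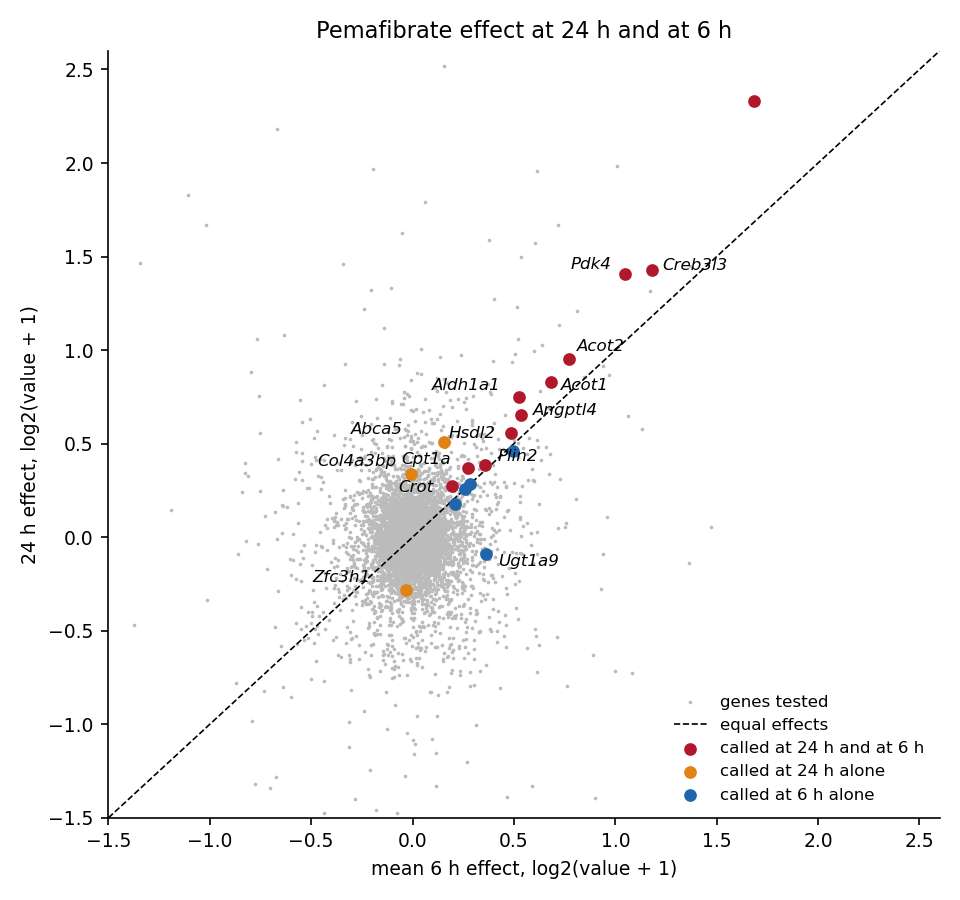
Pemafibrate effect at 24 h (vertical axis) against the mean 6 h effect (horizontal axis), both as log2(value + 1) differences, for the genes tested; 31 of 13258 lie outside the plotted range and 1 gene called at both lengths has no label. Red points are the 11 genes called at both lengths, orange points the 3 called at 24 h alone and blue points the 5 called at 6 h alone; the red points lie above the dashed line of equal effects.

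Among 21 core PPARα targets, 16 were tested, and Fgf21, Cyp4a10, Cyp4a14, Cidec and Fabp1 fell below the minimum, with highest single values of 2.02, 14.01, 1.99, 4.46 and 5.02. Of the 16, 10 had a larger estimate at 24 h than over the 6 h windows, with a median difference of 0.062 (log2), against 50.2% and 0.00047 over all genes tested. The median was 0.020, 0.083 and 0.123 in replicate numbers 1, 2 and 3. Against the windows one by one, 12 of 16 were larger than at T14 to T20 and 10 of 16 larger than at T24 to T30. All 8 core targets called at both lengths had a larger estimate at 24 h, and 2 of the 8 not called, but the call at 24 h asks for a larger estimate, so the calls favour this split and it is a description only. For 12 of 16 the interval lay within 1.5-fold, as for 80.1% of all genes. That margin, 0.585 on the log2 scale, is wider than the median 24 h estimate of the 16, which was 0.28. No core target had its 3 pairs at 24 h all above or all below its 6 pairs at 6 h, which 1.12% and 1.13% of all genes did.

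**Figure D2:**
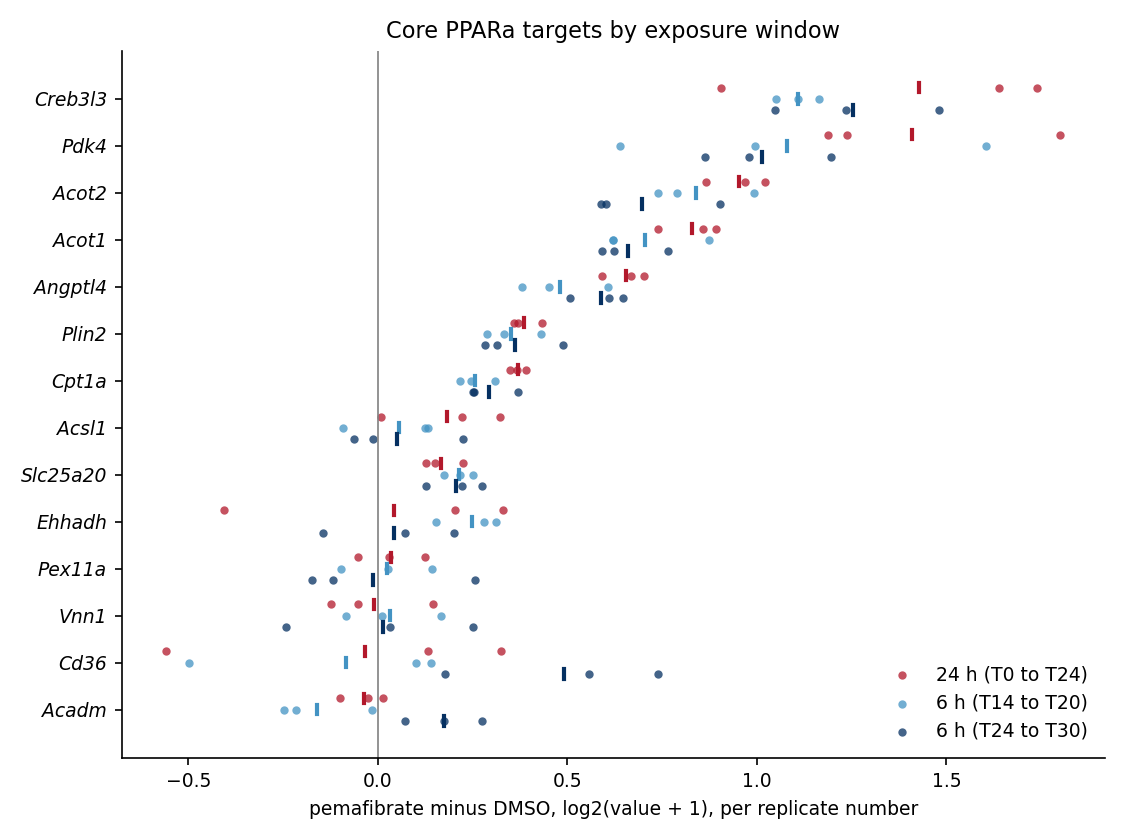
Pemafibrate minus DMSO, as log2(value + 1), for 14 core PPARα targets, with 1 point per replicate number and a vertical bar for the mean of 3, in the 24 h window (red) and the T14 to T20 (light blue) and T24 to T30 (dark blue) windows. The 7 genes from Creb3l3 to Cpt1a lie above 0 in every window, and red and blue points overlap in each of them.

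The acyl-CoA thioesterases Acot1 (cytosolic) and Acot2 (mitochondrial) release free fatty acids from acyl-CoA and are close paralogs, so reads may be divided between them with error. In replicate numbers 1, 2 and 3, the order used for all values below, the normalized signal of Acot1 was 2403, 2429 and 1528 with DMSO and 4357, 4052 and 2836 with pemafibrate at 24 h. It was 2164, 2626 and 1807 against 3970, 4033 and 2781 at T14 to T20, and 2804, 3098 and 2065 against 4768, 4667 and 3181 at T24 to T30. In each window the 3 treated libraries lay above the 3 DMSO libraries. Folds were 1.78 at 24 h, 1.63 at T14 to T20 and 1.58 at T24 to T30. The difference between lengths was 0.15 (log2, 95% interval -0.00195 to 0.30, limma adjusted p = 0.929, exact permutation p = 0.119), and 0.0854 without replicate number 3. Acot2 rose 1.94-fold, 1.79-fold and 1.62-fold in the same order of windows, with a difference of 0.18 (-0.05 to 0.41), which ran from 0.0992 to 0.316 as numbers were left out. The single pairs of both genes overlapped between the lengths.

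Carnitine palmitoyltransferase 1a (Cpt1a) is the gate for long-chain fatty acids into mitochondria. Its signal was 12249, 10112 and 9483 with DMSO and 15810, 13249 and 12083 with pemafibrate at 24 h. At T14 to T20 it was 11992, 12805 and 11012 against 14854, 14883 and 13058, and at T24 to T30 it was 11331, 12446 and 11492 against 14647, 14823 and 13708. At 24 h the DMSO and treated libraries overlapped, and within each replicate number the treated library was the higher one. The folds were 1.29, 1.195 and 1.22, and the difference between lengths was 0.09 (0.01 to 0.18, unadjusted p = 0.030, limma adjusted p = 0.929, exact permutation p = 0.0714). Carnitine octanoyltransferase (Crot), which moves medium-chain acyl groups out of peroxisomes, was called at both lengths as well, with folds of 1.21 at 24 h, 1.19 at T14 to T20 and 1.11 at T24 to T30. The carnitine-acylcarnitine carrier Slc25a20 was higher with pemafibrate in 3 of 3 pairs at 24 h and 6 of 6 pairs at 6 h but was called at neither length, and its estimates were 0.17 and 0.21 (log2).

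Pdk4, a kinase that switches off pyruvate dehydrogenase and so spares glucose, was 76.5, 71.3 and 75.6 with DMSO and 269, 170 and 174 with pemafibrate at 24 h. It was 71.6, 81.0 and 96.5 against 220, 162 and 151 at T14 to T20, and 98.9, 81.3 and 91.9 against 228, 161 and 168 at T24 to T30. Every treated library was above every DMSO library of its window. The folds were 2.66, 2.11 and 2.02, and the difference of 0.36 had an interval from -0.12 to 0.84. Its relative Pdk1, which was called at neither length, had estimates of 0.38 at 24 h, -0.03 at T14 to T20 and 0.10 at T24 to T30. The difference was 0.35 (0.10 to 0.60, unadjusted p = 0.010, limma adjusted p = 0.929, exact permutation p = 0.0476) and did not pass the adjusted threshold.

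Creb3l3, a membrane-bound liver transcription factor of the fasting response, was a low gene here. Its signal was 73.7, 27.8 and 18.04 with DMSO and 139, 88.7 and 62.5 with pemafibrate at 24 h, where the groups overlapped. At 6 h it was 47.7, 29.7 and 30.5 against 108, 65.3 and 64.3 (T14 to T20) and 35.1, 26.1 and 15.9 against 99.9, 55.1 and 38.9 (T24 to T30), with no overlap in either window. Folds of 2.69, 2.16 and 2.39 gave a difference of 0.25 (-0.26 to 0.76), the widest interval among the core genes named as called at both lengths. The pair of replicate number 1 had the lowest effect of the 24 h pairs (0.90, against 1.64 and 1.74), and without that number the difference was 0.578. It was 0.0885 without number 2 and 0.0708 without number 3.

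Angptl4, a secreted inhibitor of lipoprotein lipase, was 1320, 1054 and 1043 with DMSO and 2149, 1675 and 1571 with pemafibrate at 24 h. Its folds were 1.57 at 24 h, 1.39 at T14 to T20 and 1.503 at T24 to T30. The difference was 0.12 (-0.02 to 0.26), and it was 0.17 against T14 to T20 and 0.07 against T24 to T30. Plin2, which coats lipid droplets, was 10134, 13036 and 11882 with DMSO and 13678, 16714 and 15340 with pemafibrate at 24 h. Its folds of 1.31, 1.28 and 1.28 gave a difference of 0.03 (-0.08 to 0.14).

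The remaining core targets passed the test at neither length. The fatty acid ligase Acsl1 had the largest positive difference among those named (0.13, -0.07 to 0.34), which fell to 0.0515 without replicate number 1. Differences were -0.10 (-0.48 to 0.28) for the peroxisomal enzyme Ehhadh, 0.03 (-0.21 to 0.27) for the peroxisome division factor Pex11a and -0.03 (-0.26 to 0.20) for the pantetheinase Vnn1. The medium-chain dehydrogenase Acadm differed by -0.04 (-0.18 to 0.10) and the fatty acid transporter Cd36, at a mean signal of 42.7, by -0.24 (-0.84 to 0.36). For Acadm the 6 h windows went apart, with estimates of -0.16 at T14 to T20 and 0.17 at T24 to T30, and the 24 h estimate of -0.04 lay between them. Cd36 likewise had estimates of -0.09 and 0.49, against -0.03 at 24 h.

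Aldh1a1, a cytosolic enzyme that oxidizes retinaldehyde to retinoic acid, had the smallest p among the genes called at both lengths. Its signal was 7214, 4404 and 5776 with DMSO and 12270, 7499 and 9524 with pemafibrate at 24 h. It was 7606, 6041 and 7554 against 12283, 9192 and 10351 at T14 to T20, and 9976, 6436 and 8178 against 14206, 9123 and 10748 at T24 to T30. The pairs at 24 h (0.77, 0.77 and 0.72) lay above the pairs of both 6 h windows, of which 0.69 was the highest. Folds were 1.68, 1.499 and 1.38, and the difference was 0.23 (0.11 to 0.34, unadjusted p = 0.0010, limma adjusted p = 0.791, exact permutation p = 0.0238). DMSO libraries of T0 to T24 had the lower values of this gene, but tables were taken as normalized separately and DMSO levels were not tested between windows. Aldh1a7, its close paralog, was called at 6 h alone, with estimates of 0.46 at 24 h and 0.49 over the 6 h windows. Hsdl2, a peroxisomal dehydrogenase-like protein, was called at both lengths with folds of 1.47, 1.47 and 1.34.

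**Figure D3:**
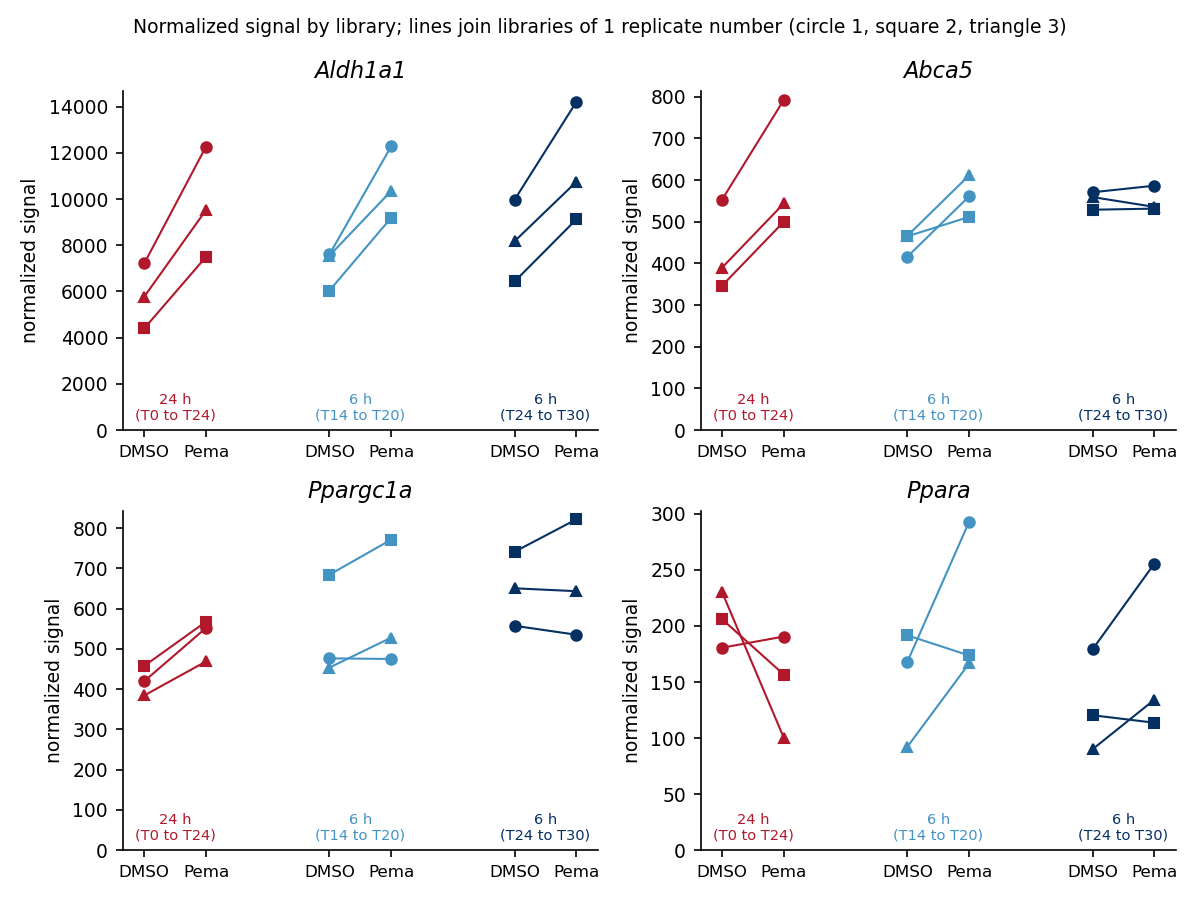
Normalized signal of Aldh1a1, Abca5, Ppargc1a and Ppara in each of the 18 libraries, with a line joining the DMSO and pemafibrate libraries of 1 replicate number (circle 1, square 2, triangle 3) in each window. Lines of Aldh1a1 rise in every window, those of Abca5 rise most at 24 h, and the Ppara lines of replicate numbers 2 and 3 fall at 24 h.

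A few genes were called at 1 length. They were chosen after their values were seen, and none of their differences passed the test across all genes. At 24 h alone these were Col4a3bp (a ceramide carrier) and Abca5 (a lipid transporter), which rose, and Zfc3h1 (a nuclear RNA surveillance factor), which fell. Zfc3h1 had the smallest p of all genes in the comparison. Its signal was 3967, 2950 and 2665 with DMSO and 3256, 2434 and 2176 with pemafibrate at 24 h, a fold of 0.82. The 24 h pairs were nearly identical (-0.28, -0.28 and -0.29), whereas the pairs were -0.13, -0.11 and -0.12 at T14 to T20 and 0.09, 0.03 and 0.04 at T24 to T30. The difference was -0.25 (-0.34 to -0.17, unadjusted p = 3.8e-05, limma adjusted p = 0.505).

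Col4a3bp was 2631, 3001 and 2508 with DMSO and 3369, 3426 and 3463 with pemafibrate at 24 h, with no overlap. Its folds were 1.26 at 24 h, 1.01 at T14 to T20 and 0.98 at T24 to T30. The difference was 0.35 (0.21 to 0.49, limma adjusted p = 0.791, exact permutation p = 0.0119, the smallest that 84 regroupings allow). Of all genes tested, 135 reached that permutation p. Col4a3bp was picked by a small p in the same comparison, so the permutation p gives no separate support. Abca5 was 553, 347 and 390 with DMSO and 792, 500 and 544 with pemafibrate at 24 h. Its folds were 1.42, 1.248 and 1.00, and the estimated difference was 0.51 against the night-like window (0.31 to 0.72, limma adjusted p = 0.537) and 0.19 against the day-like window (-0.02 to 0.39).

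At 6 h alone the called genes were Ugt1a9, Klf11, Aldh1a7, Col12a1 and Nrep, all higher. Ugt1a9 encodes a glucuronosyltransferase that conjugates drugs and other small molecules, and its family shares exons, so reads may be divided among members. Its signal was 574, 366 and 534 with DMSO and 505, 398 and 461 with pemafibrate at 24 h, where the groups overlapped. At T14 to T20 it was 599, 638 and 613 against 799, 883 and 760, and at T24 to T30 it was 586, 694 and 608 against 774, 894 and 699. The difference was -0.45 (-0.65 to -0.25, unadjusted p = 4.1e-04, limma adjusted p = 0.791). For the other 4 genes the estimates hardly differed: the difference was 9.3e-04 (-0.17 to 0.17) for the transcription factor Klf11, -0.04 (-0.33 to 0.26) for Aldh1a7, -0.03 (-0.13 to 0.07) for the collagen Col12a1 and -0.0022 (-0.14 to 0.14) for Nrep.

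The receptor and its partners were looked at next. Of 24 receptors and coregulators, 23 were tested, 12 had a larger and 11 a smaller estimate at 24 h, and the median was 0.019. Ppara itself was 181, 206 and 230 with DMSO and 191, 157 and 100 with pemafibrate at 24 h. It was 168, 192 and 92.2 against 293, 174 and 167 at T14 to T20, and 179, 120 and 90.0 against 256, 114 and 134 at T24 to T30. The pairs scattered widely in every window, and replicate number 2 was lower with pemafibrate in all 3. Its difference was -0.92 (-1.57 to -0.27, unadjusted p = 0.0096, limma adjusted p = 0.929, exact permutation p = 0.0476), and without replicate number 3 it was -0.429. Ppargc1a, a coactivator of PPARα and of mitochondrial biogenesis, was 420, 458 and 384 with DMSO and 552, 568 and 469 with pemafibrate at 24 h. Its 24 h pairs (0.39, 0.31 and 0.29) lay above all 6 h pairs, and the difference was 0.25 (0.08 to 0.43, unadjusted p = 0.0090, limma adjusted p = 0.929), and 0.167 without replicate number 1. Neither gene was called at either length.

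Cell cycle and DNA replication genes mostly had larger estimates at 24 h. Of 32 tested, 28 had a larger estimate at 24 h (87.5%, against 50.2% of all genes), with a median difference of 0.068. The medians by replicate number were 0.125, 0.026 and 0.061. Median effects of the list were 0.013 at 24 h, -0.027 at T14 to T20 and -0.067 at T24 to T30, and 27 and 28 of 32 were larger at 24 h against each 6 h window. None passed the adjusted threshold, and 6 of 32 had an unadjusted p under 0.05, all of them larger, against 2.84% of all genes. The replication helicase subunit Mcm7 was 9601, 8648 and 10978 with DMSO and 9705, 8964 and 11105 with pemafibrate at 24 h, and its 24 h pairs were all above 0 and its 6 h pairs all below 0. That pattern was seen in 0.151% of all genes. Mcm7 was named for its small p in the same comparison, so the pattern is a description only. Its estimates were small, at 0.028 (24 h), -0.094 (T14 to T20) and -0.065 (T24 to T30) on the log2 scale. The difference was 0.11 for Mcm7 (0.04 to 0.18) and 0.18 for Birc5, a chromosomal passenger protein of mitosis (0.06 to 0.29). In bulk RNA, fewer cells of a kind and less RNA per cell cannot be told apart. These genes share regulation over the cell cycle, so their common direction does not count as 32 separate measurements.

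**Figure D4:**
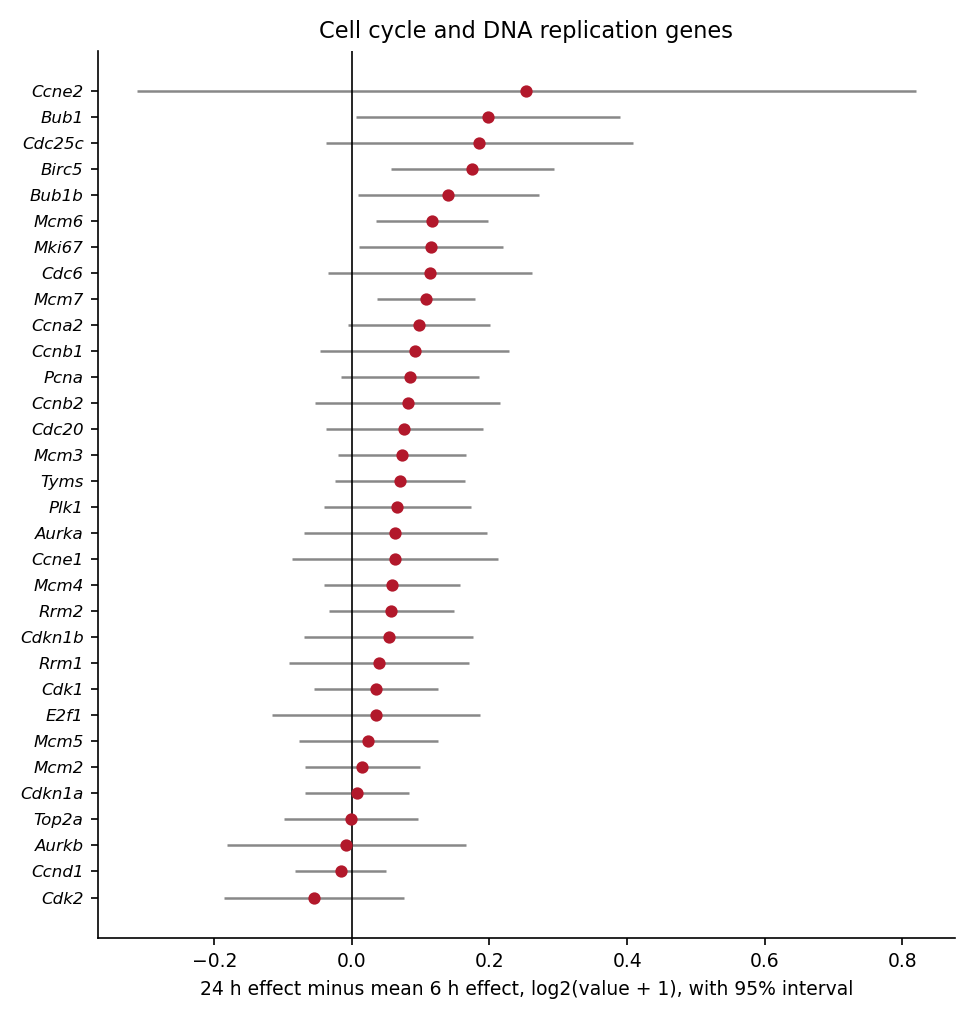
Difference between the 24 h and the mean 6 h effect of pemafibrate for the 32 cell cycle and DNA replication genes, as log2(value + 1), with 95% intervals from limma. Points of 28 genes lie to the right of 0, and 6 intervals lie wholly above it.

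Inflammation and acute phase genes mostly had smaller estimates, with 6 of 22 larger at 24 h, against 50.2% of all genes, and a median of -0.034. At an unadjusted p under 0.05, 5 of 22 were smaller (2.41% of all genes) and 1 was larger (Vcam1, 2.84% of all genes), while none passed the adjusted threshold. Acute phase and inflammatory genes also share regulation, so the 22 are not separate measurements. The chemokine gene Cxcl1 was 4739, 6774 and 4875 with DMSO and 4320, 6205 and 4661 with pemafibrate at 24 h, and its pairs of -0.13, -0.13 and -0.06 lay below all 6 h pairs. Its difference was -0.12 (-0.21 to -0.04), and that of the acute phase gene Saa3 was -0.15 (-0.26 to -0.05), or -0.0873 without replicate number 2. Both were below 0 in 3 of 3 pairs at 24 h and above 0 in 4 of 6 pairs at 6 h.

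Of 23 clock genes tested, 18 had a larger estimate at 24 h (78.3%, against 50.2% of all genes), with a median of 0.021. None had an unadjusted p under 0.05, against 5.25% of all genes. The medians by replicate number were -0.003, 0.086 and 0.030, and 5 of 23 were larger in all 3 numbers, against 12.1% of all genes. As with the lists above, the 23 are not separate measurements. The smallest p belonged to the repressor Per1, with a difference of 0.29 (-0.05 to 0.62), and the activator Arntl, with 0.17 (-0.05 to 0.38). Both rested on 1 replicate number: without number 2 the difference of Per1 was 0.0129, and without number 1 that of Arntl was 0.0583. Nr1d1 and Nr1d2, which encode the REV-ERB repressors, differed by 0.01 (-0.14 to 0.16) and 5.4e-04 (-0.10 to 0.11).

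Wider metabolic lists were mixed. In mitochondrial fatty acid oxidation 17 of 28 genes were larger at 24 h (median 0.024), in peroxisomal oxidation and biogenesis 11 of 26 (median -0.012) and in fatty acid uptake and activation 8 of 12 (median 0.050). Lipid droplet and lipolysis genes were split at 6 of 12 and ketogenesis genes at 5 of 9. Cholesterol genes were larger in 10 of 25, genes of fatty acid and triglyceride synthesis in 13 of 21 and genes of glucose use in 10 of 28, or 16 of 28 without replicate number 2. Mitochondrially encoded genes were larger in 2 of 13 (median -0.040), but in 7 of 13 against T24 to T30 alone and in 7 of 13 without replicate number 2. Single genes differed in direction within lists: Dgat1, which makes triglycerides, by -0.21 (-0.35 to -0.06), and Gpam, which starts glycerolipid synthesis, by 0.10 (0.01 to 0.19). Neither passed the adjusted threshold.

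Among the other lists, genes larger at 24 h numbered 12 of 17 among glucocorticoid responsive, 7 of 13 among omega oxidation and aldehyde clearance, 13 of 28 among immediate early and 11 of 24 among integrated stress response genes. They numbered 7 of 20 for the unfolded protein response, 11 of 28 for NRF2 antioxidant and xenobiotic genes, 21 of 32 for cytosolic ribosomal proteins and 15 of 30 for the nuclear respiratory chain. For amino acid and urea metabolism it was 8 of 20, for hepatocyte identity 9 of 19 and for extracellular matrix 8 of 22. Marker lists of other cells gave 1 of 4 for stellate cells and fibroblasts, 3 of 4 for macrophages, 1 of 2 for endothelium and 4 of 8 for cholangiocytes. Medians of the lists other than those of other cells lay between those of the mitochondrially encoded and the cell cycle genes.

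**Figure D5:**
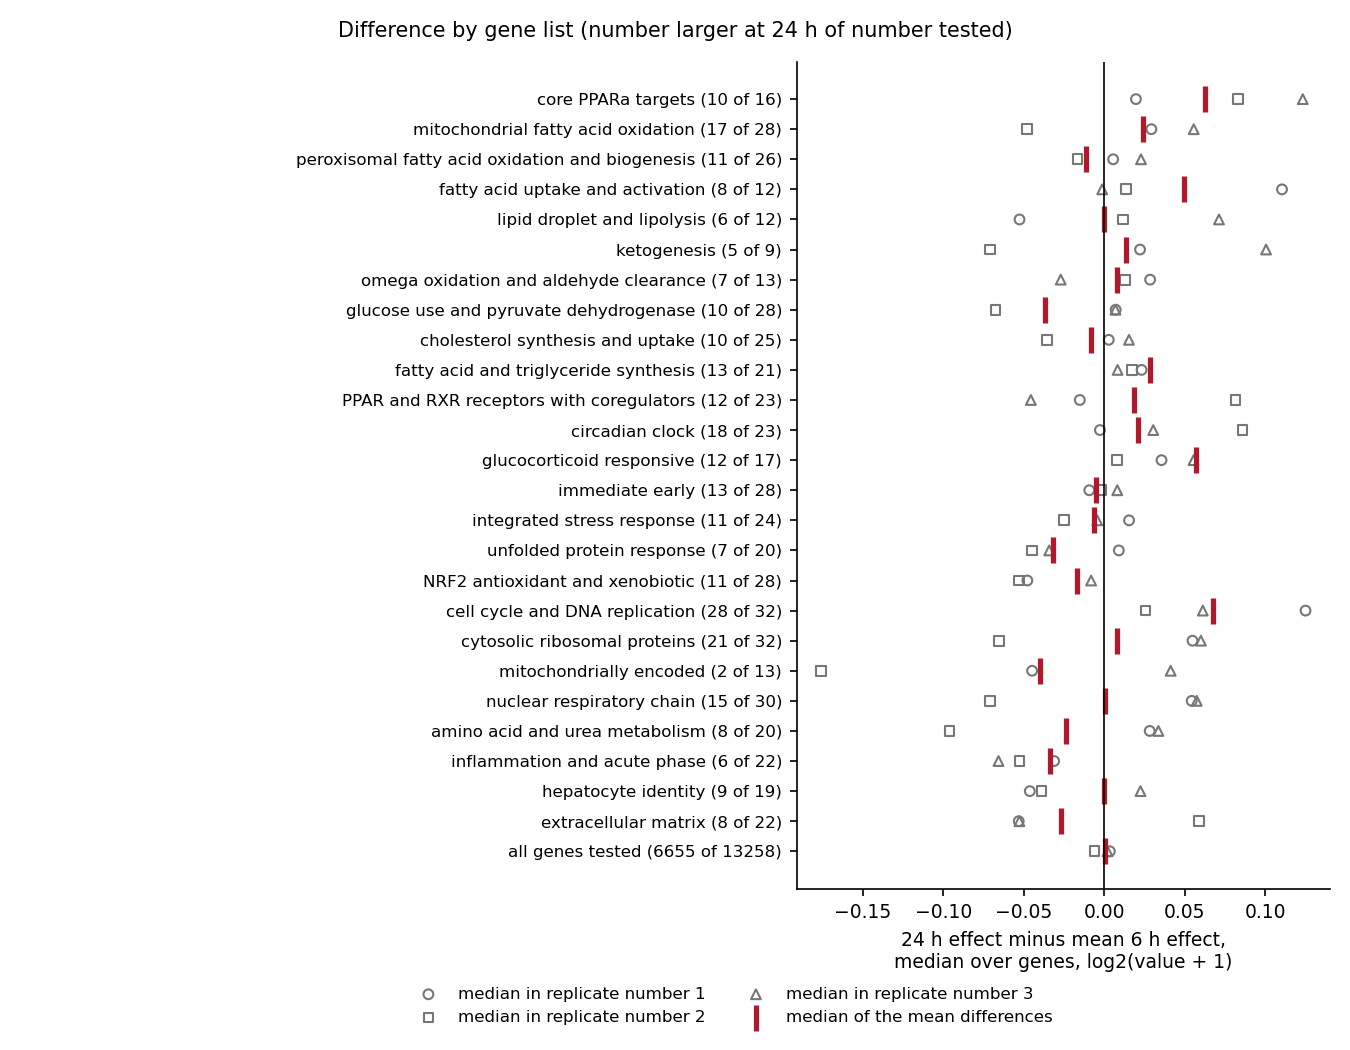
Median difference between the 24 h and the mean 6 h effect for each gene list, as log2(value + 1), with the median of the mean differences as a red bar and the medians of replicate numbers 1, 2 and 3 as circles, squares and triangles; the numbers beside each list are genes larger at 24 h of genes tested. Cell cycle genes lie to the right of 0 in all 3 replicate numbers, as do core PPARα targets, glucocorticoid responsive genes and genes of fatty acid and triglyceride synthesis. Inflammation genes lie to the left in all 3, as do NRF2 antioxidant and xenobiotic genes.

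The 8 smallest p-values in each direction belonged to genes of varied function. With a difference above 0 these were Col4a3bp, the phosphatase Eya3, Gm2058, C2cd5, the ribosomal protein gene Rpl30, the solute carrier Slc37a3, Tmem184b and Aldh1a1. With a difference below 0 they were Zfc3h1, the corepressor scaffold Sin3a, Ugt1a9, the mitochondrial import factor Pam16, Sharpin, the ribosome assembly factor Wdr3, Nmnat3 (which makes NAD) and Zcchc8. For Zfc3h1 this was a stronger fall at 24 h. Sin3a was 3798, 3148 and 3236 with DMSO and 3280, 3086 and 3008 with pemafibrate at 24 h, while at 6 h all 6 pairs were above 0, from 0.08 to 0.25. Its difference was -0.27 (-0.39 to -0.16). Eya3 had pairs of 0.13, 0.24 and 0.24 at 24 h and 6 h pairs from -0.19 to 0.05, a difference of 0.28 (0.16 to 0.41). Gm2058 is a predicted gene. It was listed at 0 in the 3 DMSO libraries of T0 to T24 and at 11.0, 18.8 and 58.6 with pemafibrate, so no fold is given. Its difference was 6.47 without replicate number 1 and 6.86 without number 2. Part of these differences came from lower signal with pemafibrate at 6 h. Without number 3, its highest at 24 h, its mean fell below the minimum and it was not tested. The limma adjusted p was 0.791 for Eya3, Sin3a and Gm2058.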

How the data were processed

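Strand-marked libraries were made from the poly(A) RNA of AML12 cells, per the labels' protocols, and groups and replicate numbers came from the sample titles. The authors deposited 1 table per window with 35551 Ensembl gene IDs and 6 libraries. The values are normalized signal by the names under which they were deposited. Scaling within each window was assumed, and the column names end as salmon output does. For its version, the genome build, the annotation and the normalization method, the entry is: not given in the sources used here. Of low values, 56.6% to 74.4% were whole multiples of 1 read (tolerance 0.05, up to 8 reads), so reads were not recovered and no count test was run. A gene name table matched 35181 IDs, and 370 kept their ID. RefSeq promoter sequences were matched by symbol.

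Tests used log2(value + 1), a scale that understates changes of low genes, for genes with a mean of at least 10. limma 3.58.1 in R 4.3.3 (lmFit, eBayes with a variance trend) was fitted to all 18 libraries with the 9 window-by-replicate pairs as blocks, two-sided, Benjamini-Hochberg threshold 0.05. Deviations from group means correlated at 0.31 to 0.62 in the 9 same-number pairs and at -0.42 to -0.11 between different numbers. Deviations within a group cancel out, so the negative values follow from the positive ones and add nothing to them. The pairing comes from the titles together with the same-number correlations. Pairs of 1 number in different windows were taken as independent. Exact permutation tests compared 3 pairs with 6 pairs (84 regroupings, two-sided, smallest p 0.0119). Genes named by a small limma p were picked on the same values, so their permutation p is no separate support. TMM and upper-quartile factors, tried as alternatives, were computed on the deposited values. The model code was tested on simulated data.

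The members, the 29 gene lists and the rule were chosen with earlier results of these data known. The rule named the 8 genes of smallest p in each direction, the measured core targets, up to 2 genes of smallest p per other list (1 for other cell types), the clock genes as a group and genes called at both lengths; genes called at 1 length were added. Some genes that the rule covers, 2 core targets among them, enter the counts and medians but are not reported here by name.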

Additional observations from a re-analysis of the deposited data

How the results depend on the processing

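With no replicate block, which drops the pairing, 76 genes in place of 696 had an unadjusted p under 0.05, and the counts called fell from 14 to 0 at 24 h and from 16 to 2 at 6 h. With the block by number (3 units), the 24 h count was 7, and without a variance trend the 6 h count was 9. The unadjusted count was 1057 against T24 to T30 only and 1220 with no filter on low values. The count of genes whose effect differed stayed at 0 except for 0 to 1 when a replicate number was left out, also against T14 to T20 and T24 to T30 alone (0 to 1 each): Rpl14-ps1, a pseudogene, passed without replicate 1 and Gm2223, a predicted gene, without replicate 3 (limma adjusted p = 3.2e-04 and 0.0082). Leaving out a number left 5 to 11 genes called at 24 h and 8 to 9 at 6 h, and 9 to 16 genes of glucose use larger at 24 h. Among 1282 values for 86 genes, 15 changed sign. Against T14 to T20 only, Cd36 was 0.0517, Acadm 0.122 and Aldh1a7 0.0272; against T24 to T30 only, Klf11 was -0.0308 and Nrep 0.0987. Leaving out 1 number at a time, values ran from -0.278 to 0.169 for Ehhadh, -0.0875 to 0.168 for Pex11a, -0.14 to 0.511 for Oxct1, -0.0543 to 0.0455 for Klf11, -0.0739 to 0.0125 for Col12a1, -0.154 to 0.0748 for Aldh1a7, -0.0816 to 0.0643 for Nrep, -0.438 to 0.0891 for Cd36 and -0.0618 to 0.626 for Pecam1. The cause was not tested. Counts for the effects at each length, for single windows and for lists were recomputed by a choice made after seeing the data. Depth before normalization is unknown, so no detection limit is given.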
